A study of Gallus gallus with 4 samples.

Results

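A set of 8 genes that mark or steer the B lineage, namely CD79B, BLK, BTK, TNFRSF13C, TNFRSF13B, IRF4, PRDM1 and MZB1, were followed in the trachea of chickens that had breathed hydrogen sulfide and of unexposed chickens. They were taken by symbol from a table of 26296 genes, and all 8 of the 8 were found there and passed the filter on low counts. The set was chosen by B lineage role with the exposed-over-control log2 fold changes of the same 4 libraries known, so its values in that contrast are given as a description, with no test. The exposed group comprised 2 libraries from birds whose chamber was metered with anhydrous hydrogen sulfide, first at 3.5 to 4.5 mg/kg (weeks 0 to 3) and later at 19.5 to 20.5 mg/kg (weeks 4 to 6). The control group comprised 2 libraries from birds of a chamber to which no hydrogen sulfide was added. All birds were 42 days old, and neither strain nor sex is stated by the labels. Each treatment had its own chamber, so the gas cannot be told apart from other differences between the chambers. The labels do not say how many birds stand behind a library, so every p-value measures only the spread between these libraries, which may be technical.

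B cells recognise antigen through a surface immunoglobulin that signals through CD79 chains and a chain of kinases. Activated B cells can enter a germinal centre, where the antibody genes are mutated and selected, and can then become plasma cells that secrete antibody. In birds, B cells mature in the bursa of Fabricius and then seed mucosal lymphoid tissue, including that of the airway. Survival of mature B cells and of antibody-secreting cells rests on the cytokine BAFF and its receptors, and the switch to the plasma cell programme on the transcription factors IRF4 and PRDM1.

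The deposited read counts summed to between 22283320 and 22706119 in the exposed libraries and between 16899066 and 17400644 in the controls. Levels below are CPM, the reads of a gene over those of its library, after TMM scaling for library composition, and gene lengths were not used, so levels are compared between libraries and not between genes. The trachea label was borne out by markers of its tissues: the epithelial gene EPCAM stood at 546 and 609 CPM in exposed libraries and at 511 and 486 CPM in controls, and the ciliated cell factor FOXJ1 at 157 and 232 CPM against 189 and 177 CPM. The pieces of trachea were not alike in the control group. The cartilage gene MATN1 stood at 1999 and 2213 CPM in the exposed libraries and at 177 and 2949 CPM in control replicates 1 and 2, and the muscle gene ACTA1 at 3119 and 1374 CPM in exposed libraries against 3449 and 420 CPM in controls. Genes of the sex chromosomes also divided each group. The median deviation of 629 Z-linked genes from their 4-library mean was -0.25 and 0.30 on the log2 scale in exposed replicates 1 and 2. It was 0.29 and -0.30 in control replicates 1 and 2. Summed reads of 43 W-linked genes ran the other way. They were 10544 and 3339 in exposed replicates 1 and 2, and 2490 and 8280 in control replicates 1 and 2. None of the 8 genes lies on the Z or W chromosome in the RefSeq table of assembly GRCg7b (0 of 8).

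The antigen receptor step was represented by CD79B, BLK and BTK, and all 3 stood at lower levels in the exposed tracheas. CD79B encodes the signalling chain that carries the antigen receptor's message into the cell. It stood at 13.2 and 10.9 CPM in exposed libraries and at 17.9 and 25.7 CPM in controls (log2 fold change -0.85, SE 0.27). Control replicate 2 was the highest of the 4 libraries, and the lowest control was 1.35 times the highest exposed library, the narrowest such gap of these 3 genes. BLK encodes a kinase of the SRC family that is largely restricted to B cells in mammals. It stood at 12.3 and 10.6 CPM after exposure against 19.7 and 21.6 CPM in controls (log2 fold change -0.85, SE 0.21). Within each group the BLK values lay close together, with a replicate 2 over replicate 1 ratio of 0.859 in the exposed libraries and 1.10 in the controls. BTK encodes Bruton's tyrosine kinase, which relays the receptor signal to phospholipase C and is also made by myeloid cells. It stood at 22.7 and 20.1 CPM in exposed libraries against 38.1 and 49.7 CPM in controls (log2 fold change -1.04, SE 0.21).

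The survival receptors differed from each other more than any other pair that shares a role. TNFRSF13B, also called TACI, in mammals binds BAFF and APRIL and regulates class switching and antibody-secreting cells. It stood at 6.90 and 4.79 CPM in exposed libraries and at 21.9 and 22.9 CPM in controls (log2 fold change -1.94, SE 0.27), and the exposed mean was 5.84 ± 1.49 CPM against 22.4 ± 0.768 CPM (SD, n = 2 libraries each). The lowest control was 3.17 times the highest exposed library, the widest gap of the 8 genes, and 79 of the 16545 tested genes had a lower log2 fold change. TNFRSF13C encodes the BAFF receptor, the main survival receptor of resting B cells. Its read counts were 48 and 50 in exposed libraries and 46 and 49 in controls, which after scaling came to 2.22 and 2.26 CPM against 2.51 and 2.89 CPM (log2 fold change -0.27, SE 0.34). The exact 95% binomial interval for exposed replicate 1 ran from 1.64 to 2.95 CPM. That for control replicate 2 ran from 2.14 to 3.82 CPM, and the 2 intervals overlapped. Such intervals cover counting error only. The log2 fold change of TNFRSF13C was smaller in size than its SE, so a difference as small as this was not resolved. It was -0.17 without control replicate 2.

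The transcription factors of the switch to antibody secretion were lower in the exposed libraries by similar factors. IRF4, which is needed both for class switching and for plasma cells and is also made by T cells and dendritic cells, stood at 47.2 and 58.8 CPM in exposed libraries against 108 and 133 CPM in controls (log2 fold change -1.19, SE 0.20). With 1020 to 2263 reads per library it was the most deeply counted of the 8 genes. PRDM1, whose product BLIMP1 shuts down the B cell programme in plasma cells and also acts in T cells and epithelia, stood at 28.2 and 27.4 CPM after exposure and at 47.4 and 61.6 CPM in controls (log2 fold change -0.97, SE 0.20). The exposed PRDM1 values differed by less than their counting intervals, which ran from 26.0 to 30.6 CPM and from 25.3 to 29.7 CPM.

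MZB1 encodes a chaperone of the endoplasmic reticulum that helps assemble and secrete immunoglobulin in marginal zone B cells and plasma cells of mammals. It stood at 4.58 and 6.24 CPM in exposed libraries and at 13.1 and 24.2 CPM in controls (log2 fold change -1.79, SE 0.39). The controls differed 1.85-fold from each other, beyond their counting intervals of 11.5 to 14.9 CPM and 22.0 to 26.7 CPM, and the exposed libraries differed 1.36-fold. MZB1 had both the largest standard error of the 8 genes and, after TNFRSF13B, the lowest log2 fold change.

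**Figure D1:**
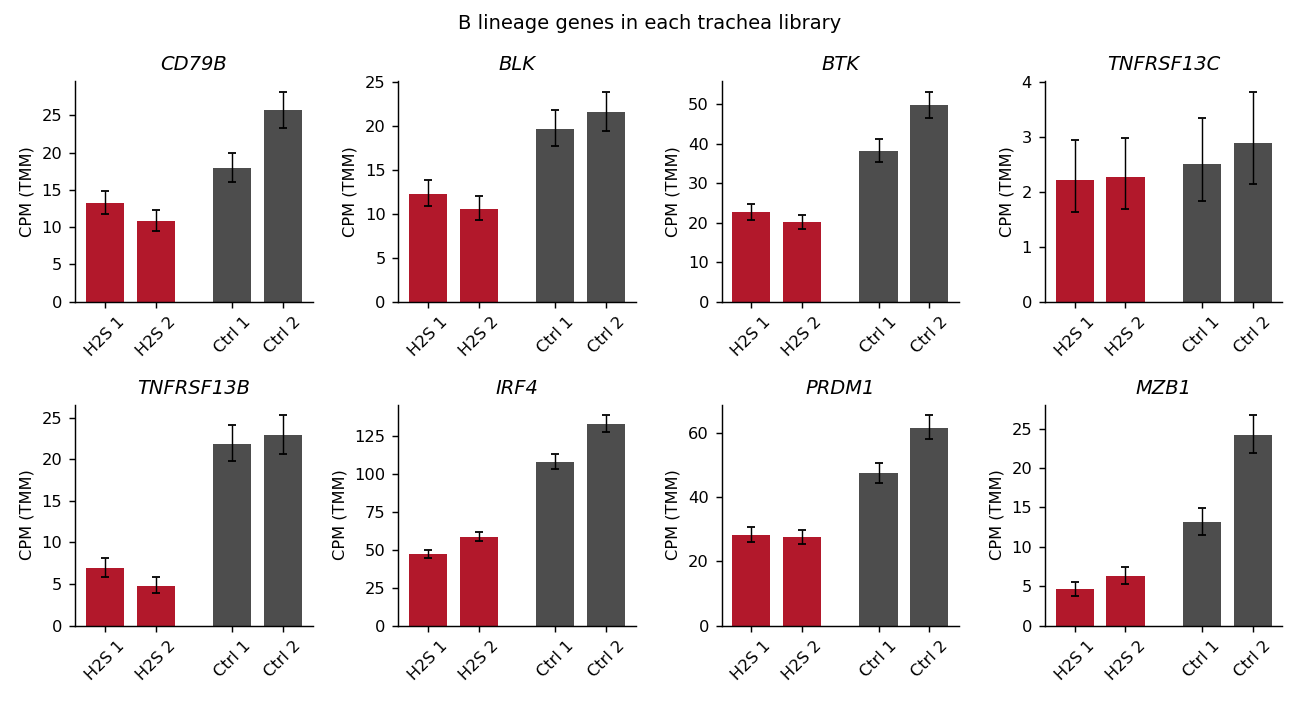
Level of each of the 8 genes in each library, in CPM after TMM scaling, with exposed libraries in red and control libraries in grey and exact 95% binomial intervals as bars, on a separate axis from 0 for each gene. Both exposed libraries sit below both controls in every panel, by 3.17 times for TNFRSF13B and by 1.11 times for TNFRSF13C, whose intervals overlap.

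Across the 8 genes the median log2 fold change was -1.003, with a range from -1.94 for TNFRSF13B to -0.27 for TNFRSF13C, against a median of 0.01 over all 16545 tested genes. All 8 were lower after exposure with no overlap between the groups, a pattern that 17.2% of all tested genes had, and it was part of how the genes came to be chosen. For 7 of the 8 the counting intervals of exposed and control libraries did not touch either, the exception being TNFRSF13C, and 4.41% of all tested genes met this criterion on the lower side. Control replicate 2 held the highest level of all 8 genes. Exposed replicate 2 was the lowest library for 5 of them (CD79B, BLK, BTK, TNFRSF13B and PRDM1) and exposed replicate 1 for 3 (TNFRSF13C, IRF4 and MZB1). For PRDM1 and TNFRSF13C the exposed libraries lay within each other's counting intervals. The median was -0.82 without control replicate 2. In bulk tissue, fewer cells of a type and less RNA of a gene per cell cannot be told apart.

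Ratios of read counts within a library do not depend on how libraries are scaled, and they set single genes of the steps against one another. The ratio of TNFRSF13B to TNFRSF13C reads was 3.10 and 2.12 in exposed libraries and 8.72 and 7.94 in controls, a log2 difference of -1.70. The ratio of MZB1 to CD79B reads was 0.346 and 0.575 after exposure against 0.733 and 0.945 in controls, a log2 difference of -0.90, which was -0.53 without exposed replicate 1 and -1.27 without exposed replicate 2. In these 2 pairs the groups did not overlap, with TNFRSF13B lower relative to TNFRSF13C and MZB1 lower relative to CD79B. Nor did they overlap for BTK over CD79B and PRDM1 over IRF4, given below. The genes of all these pairs were chosen with this contrast known. The share of other gene pairs without overlap was not computed. TNFRSF13C had only 46 to 50 reads per library. Within the antigen receptor step the ratios differed less between the groups. BLK over CD79B was 0.930 and 0.975 in exposed libraries against 1.10 and 0.841 in controls, with the exposed values lying between the controls. BTK over CD79B was 1.71 and 1.85 against 2.13 and 1.94, lower without overlap, with a log2 difference of -0.19. Exposed replicate 2 lay just below control replicate 2 in this ratio. The counting error of the ratios was not computed. PRDM1 over IRF4 was 0.598 and 0.467 in exposed libraries and 0.437 and 0.462 in controls, higher without overlap. Exposed replicate 1 stood apart and exposed replicate 2 lay just above the controls. The PRDM1 to IRF4 log2 difference was 0.23 with all libraries, 0.05 without exposed replicate 1 and 0.41 without exposed replicate 2. For a ratio of this kind, 2 libraries a group allow no two-sided exact permutation p below 0.333, and none is given.

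**Figure D2:**
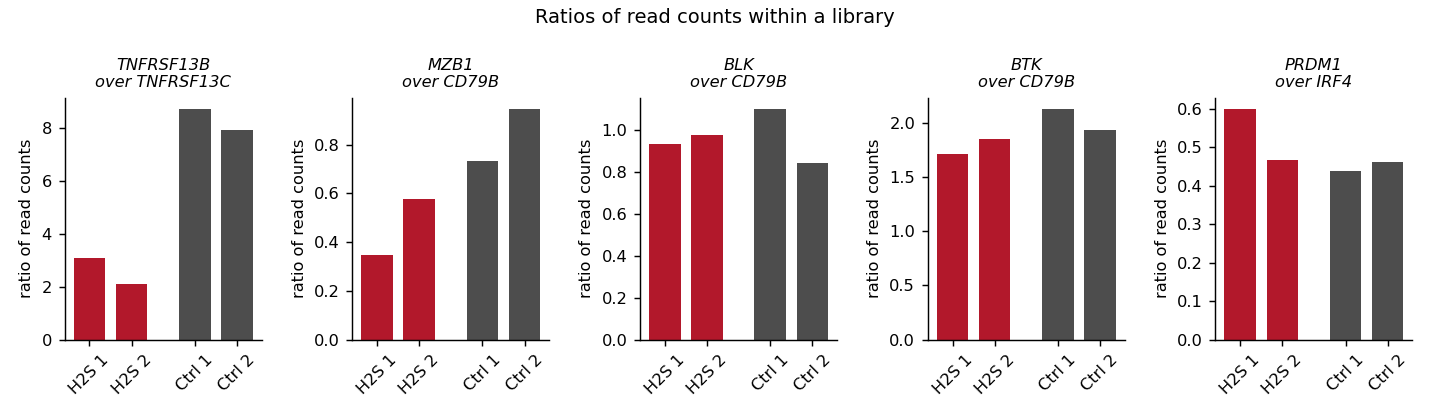
Ratio of the read counts of 2 genes in each library, with exposed libraries in red and controls in grey, each panel on its own axis from 0. TNFRSF13B over TNFRSF13C lies at 3.10 and 2.12 in exposed libraries against 8.72 and 7.94 in controls, and BLK over CD79B overlaps between the groups.

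PTPRC, the CD45 gene carried by leukocytes, was used as a denominator for leukocyte RNA. It stood at 276 and 238 CPM in exposed libraries against 307 and 479 CPM in controls (log2 fold change -0.61, SE 0.27). Of the 8 genes, 7 were lower in both exposed libraries than in both controls when counted per PTPRC read, a pattern that 2.2% of all tested genes had. The contrast that chose the genes is part of this count, so nothing is read from it. TNFRSF13B reached 0.025 and 0.020 reads per PTPRC read after exposure against 0.071 and 0.048 in controls, which is 38.4% of the control level on the geometric mean. MZB1 came to 44.9% of the control level, IRF4 to 65.6%, BTK to 73.4% and PRDM1 to 77.1%. CD79B and BLK lay nearer the controls, at 83.6% and 82.9%, and BLK per PTPRC read was 0.0446 and 0.0445 in exposed libraries against 0.0641 and 0.0451 in the controls, so that control replicate 2 almost met the exposed values. The log2 difference of that ratio was -0.27 with all libraries and -0.02 and -0.52 without control replicates 1 and 2. TNFRSF13C per PTPRC read overlapped between the groups, at 0.00804 and 0.00951 after exposure against 0.00816 and 0.00603 in controls. These percentages depend on the leukocyte gene chosen. Each of the 9 tested genes of a leukocyte list served as the denominator in turn, a choice made after seeing the data. TNFRSF13B came to between 33.2% and 49.4% of the control level and MZB1 to between 38.7% and 57.7%. Neither overlapped between the groups with any of the 9. IKZF1, one of the 9, is also on the list of B lineage transcription factors. CD74, another, is a gene of antigen-presenting cells, B cells included. CD79B ranged from 72.2% to 108% and BLK from 71.6% to 107%, each above the control level with 3 of the 9 (LCP1, ITGB2 and NCKAP1L). PRDM1 ranged from 66.6% to 99.1% and BTK from 63.4% to 94.4%, without overlap for 4 and 5 of the 9. IRF4 ranged from 56.6% to 84.4%, without overlap for 6 of the 9. TNFRSF13C went the other way, from 108% to 160%. It was higher without overlap per read of LCP1, ITGB2, LAPTM5, NCKAP1L and IKZF1, and overlapped with the other denominators. The share of all tested genes without overlap was computed for PTPRC only. The contrast that chose the genes is part of these counts too, so nothing is read from them. The IRF4 log2 difference per PTPRC read was -0.61 with all libraries and -0.34 without exposed replicate 1.

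**Figure D3:**
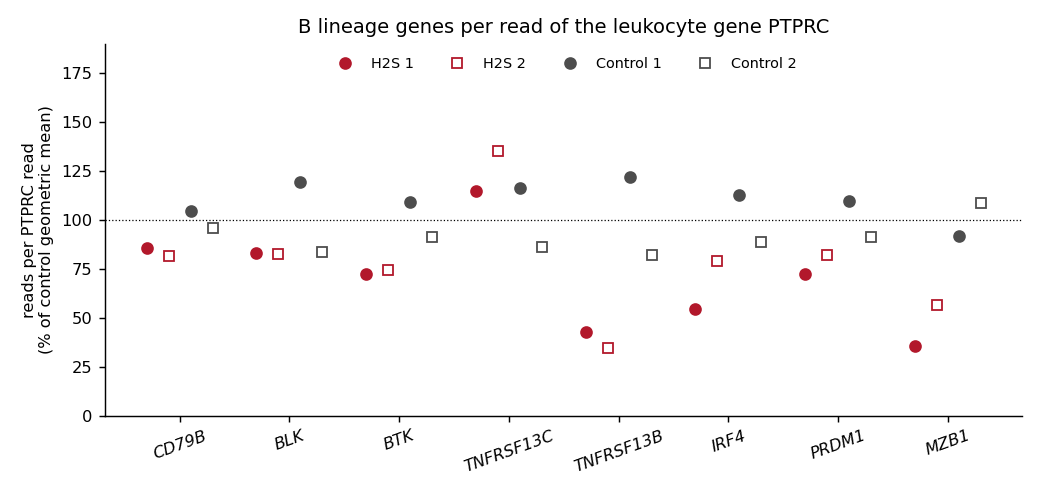
Reads of each gene per read of PTPRC in the same library, as a percentage of the geometric mean of the controls, with exposed libraries in red and controls in grey (circles for replicate 1, squares for replicate 2). TNFRSF13B and MZB1 lie lowest on the mean of the exposed libraries, BLK of control replicate 2 lies beside the exposed values, and TNFRSF13C overlaps.

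Other genes of each step were read from gene lists. No gene of the table passed edgeR's quasi-likelihood test at an adjusted p under 0.05 (0 of 16545, or 0% in each direction, with a smallest adjusted p of 0.571), while 575 genes (3.48%) were lower and 351 (2.12%) higher at an unadjusted p under 0.05. DESeq2, a second count test, called 81 lower (0.49%) and 50 higher (0.302%) of the same genes. The 5 lists of B lineage steps held 93 tested genes besides the 8. Of these 93, edgeR called 0, 32 were lower and 1 higher at an unadjusted p under 0.05, and DESeq2 called 6, all lower. Groups did not overlap for 54 of the 93 on the lower side (58.1%) and for 7 on the higher side (7.53%), against 17.2% and 15.3% of all tested genes. A log2 fold change below 0 was found for 73 of the 93 (78.5%), against 48.4% of all tested genes. The lists were chosen with earlier results of these data known, so these shares do not stand as independent evidence.

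Of 25 tested genes of antigen receptor signalling besides CD79B, BLK and BTK, 23 had a log2 fold change below 0, with a median of -0.56, and none passed edgeR, with 12 lower and none higher at an unadjusted p under 0.05. SYK, the kinase that docks on the phosphorylated CD79 chains, stood at 31.8 and 35.9 CPM in exposed libraries against 65.3 and 72.9 CPM in controls (log2 fold change -1.03, SE 0.17), and DESeq2 called it. BANK1, a scaffold of B cells that binds LYN and phospholipase C, stood at 5.14 and 4.97 CPM against 11.7 and 17.8 CPM (log2 fold change -1.54, SE 0.31) and was called by DESeq2 as well. The effector PLCG2, activated by BTK, stood at 160 and 170 CPM in exposed libraries against 232 and 328 CPM in controls, and the adaptor BLNK at 56.2 and 51.3 CPM against 65.8 and 109 CPM. LYN, a kinase shared with myeloid cells, had 210 and 201 CPM after exposure against 271 and 278 CPM in controls (log2 fold change -0.42, SE 0.15). PIK3CD, the leukocyte phosphoinositide kinase, came to a log2 fold change of -0.69 (SE 0.18). The list's median was -0.31 without control replicate 2. CD79A, the partner chain of CD79B, is not analysed here.

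Among 16 B lineage transcription factors besides IRF4, 13 had a log2 fold change below 0, with a median of -0.27, and edgeR called 0, with 7 lower and none higher at an unadjusted p under 0.05. POU2AF1, the coactivator OBF1 that B cells need for germinal centres, stood at 31.3 and 29.0 CPM in exposed libraries against 67.6 and 96.9 CPM in controls (log2 fold change -1.45, SE 0.23), and DESeq2 called it. PAX5, which holds cells in the B cell identity, stood at 44.9 and 60.4 CPM against 89.2 and 108 CPM (log2 fold change -0.90, SE 0.22). PAX5 and SYK lie on the Z chromosome, whose genes were on the whole higher in exposed replicate 2 and control replicate 1, and both genes were likewise higher in exposed replicate 2, while among the controls both were higher in replicate 2. The part of the Z chromosome in their values was not tested. IRF8, made by B cells and by dendritic cells and macrophages, stood at 132 and 75.4 CPM in exposed libraries against 224 and 195 CPM in controls. EBF1 and BACH2, which also act in B cells, were nearer the median of all genes, EBF1 at -0.10 (SE 0.25) and BACH2 at 0.06 (SE 0.24) on the log2 scale. The list's median was -0.52 without control replicate 1.

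None of the 8 genes is particular to the germinal centre, so that step was read from its list, of which 26 genes were tested. The uracil glycosylase gene UNG of this list is listed at 0 in all 4 libraries. The annotation used for counting is not given, so whether UNG RNA was absent cannot be told. Of the 26, 23 had a log2 fold change below 0, with a median of -0.49, and edgeR called 0, with 8 lower and none higher at an unadjusted p under 0.05. The 23 include RAG1, RAG2 and DNTT, of antigen receptor gene recombination rather than the germinal centre. These had only 2 to 25 reads per library, with log2 fold changes of -0.53, -0.55 and -0.75. BCL6, the master repressor of the germinal centre, which other cells also make, overlapped between the groups at 146 and 146 CPM against 141 and 232 CPM. MEF2B, a transcription factor upstream of BCL6 in mammals, stood at 4.12 and 3.71 CPM in exposed libraries against 9.15 and 9.85 CPM in controls. LOC422511, which the RefSeq table names CXCL13L3, a relative of the chemokine that draws B cells into follicles, stood at 7.54 and 5.70 CPM against 14.8 and 20.6 CPM and was the only gene of the list that DESeq2 called. EXO1, an exonuclease of mismatch repair that is also active in dividing cells, came to a log2 fold change of -1.11 (SE 0.29). The list's median was -0.33 without control replicate 2. CD40, the receptor for help from T cells, overlapped between the groups at 18.7 and 14.0 CPM against 15.4 and 25.1 CPM.

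The plasma cell list ranged widely, from a log2 fold change of -2.57 for IGJ to 0.42. Of its 16 tested genes besides IRF4, PRDM1, MZB1 and TNFRSF13B, 11 had a log2 fold change below 0, with a median of -0.23, and edgeR called 0 (4 lower and none higher at an unadjusted p under 0.05). IGJ, the joining chain of secreted antibody, stood at 954 and 760 CPM in exposed libraries against 5835 and 4335 CPM in controls (log2 fold change -2.57, SE 0.40). The light chain gene IGLL1 stood at 1369 and 1095 CPM against 6665 and 6249 CPM (log2 fold change -2.39, SE 0.41), and its reads may be shared with related segments. The ratio of IGJ to MZB1 reads overlapped between the groups, at 208 and 122 in exposed libraries and 444 and 179 in controls. TXNDC5, a disulfide isomerase abundant in plasma cells, stood at 48.0 and 36.3 CPM after exposure against 84.2 and 102 CPM in controls, and DESeq2 called it and IGJ. DERL3, of the degradation machinery of the endoplasmic reticulum, stood at 22.6 and 21.2 CPM against 34.1 and 38.3 CPM. XBP1, which expands the secretory apparatus in plasma cells and in other secretory cells, overlapped between the groups at 98.2 and 94.0 CPM against 84.6 and 98.4 CPM (log2 fold change 0.07, SE 0.16). SDC1, which marks plasma cells and is also made by epithelium, was at 160 and 205 CPM in exposed libraries against 116 and 171 CPM in controls. It was named after its values were seen. The median of the list was -0.11 without control replicate 2.

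Of the BAFF and APRIL axis, the BAFF gene stood lower in exposed libraries beside its receptor TNFRSF13B, and the adaptors lay on either side of 0. Of the 15 genes listed for this axis, 12 were tested. The APRIL gene TNFSF13 and the receptor gene TNFRSF17 were not among the 12. TNFSF13B, which encodes BAFF and in chicken is made by B cells themselves, stood at 16.2 and 19.1 CPM in exposed libraries against 34.7 and 34.4 CPM in controls (log2 fold change -0.97, SE 0.19, edgeR adjusted p = 0.661). The replicates of each TNFSF13B group lay close together and the groups did not overlap. TRAF6, an adaptor of many receptors, stood at 146 and 127 CPM after exposure against 99.3 and 105 CPM in controls (log2 fold change 0.42, SE 0.16). TRAF5 was lower without overlap (log2 fold change -0.39, SE 0.17). Among the 10 tested genes besides the 2 receptors, groups did not overlap for 2 on the lower side and for 4 on the higher side, TRAF6 being one of the 4. The shares of all tested genes were 17.2% and 15.3%. Of these 10 genes, 3 had a log2 fold change below 0 and 7 above, with a median of 0.14. For them edgeR and DESeq2 called 0, with 1 lower and 1 higher at an unadjusted p under 0.05 in edgeR. That median was -0.11 without control replicate 1 and 0.36 without control replicate 2.

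**Figure D4:**
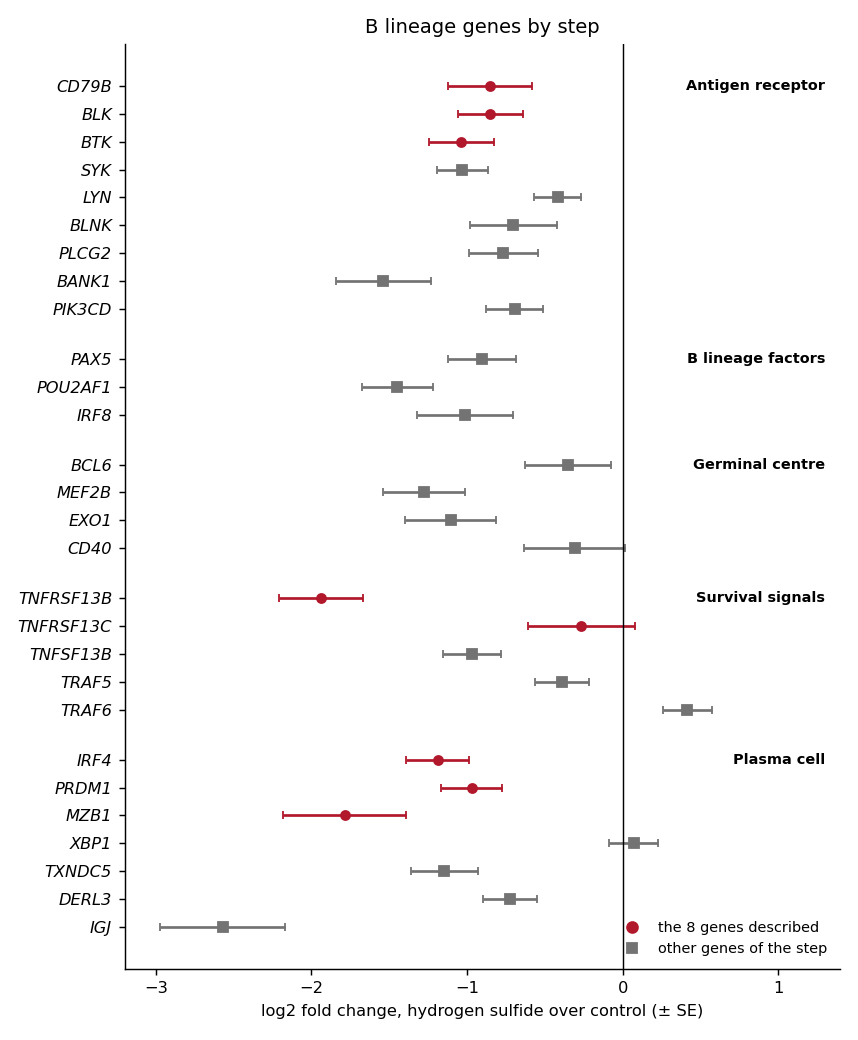
Log2 fold change of exposed over control libraries with its standard error, by the fit across all genes with 2 libraries per group. Red circles are the 8 genes and grey squares a selection of other genes of each step. List genes left out lie on both sides of 0, those above 0 including SDC1, ELL2, LMO2, RUNX1 and BIRC2. The drawn genes therefore do not show the spread of each list. TNFRSF13B, MZB1 and IGJ lie furthest to the left, at -1.94, -1.79 and -2.57, and TNFRSF13C, CD40, BCL6, XBP1 and TRAF6 lie nearest to or right of 0.

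Markers of other leukocytes and of dividing cells were also lower in the exposed libraries, and their part in the values of the 8 genes was not tested. Of all tested genes, 48.4% had a log2 fold change below 0. The 9 tested genes of the leukocyte list, IKZF1 and CD74 among them, were all below 0, with a median of -0.64. They summed to 1964 and 1491 CPM in exposed libraries against 2778 and 2808 CPM in controls. CD74 made up the largest part of these sums, at 1130 and 810 CPM against 1655 and 1369 CPM. LCP1, ITGB2 and NCKAP1L had the smallest unadjusted p of these 9, with log2 fold changes of -0.93, -0.91 and -0.95. Of 17 T cell genes 16 were below 0, with a median of -0.47, and they summed to 254 and 228 CPM against 281 and 396 CPM. The T cell receptor chain CD3E stood at 64.7 and 66.4 CPM after exposure against 78.8 and 125 CPM in controls. Of these, CD2, CTLA4 and CD6 had log2 fold changes of -1.30, -1.11 and -1.11. Of 14 macrophage genes 10 were below 0, with a median of -0.27, and they summed to 457 and 326 CPM in exposed libraries against 671 and 514 CPM in controls. The phagocyte oxidase gene CYBB stood at 23.6 and 16.5 CPM against 50.1 and 57.5 CPM, MPEG1 had a log2 fold change of -0.97 and SPI1, shared with B cells, of -0.93. The T cell median was -0.73 and -0.28 without control replicates 1 and 2. The macrophage median was -0.74 and -0.08 when exposed replicate 1 or 2 was left out, and -0.17 and -0.62 when control replicate 1 or 2 was left out. No defining marker of these lists that was found in the table is listed at 0. Airway epithelial genes had a median of 0.16, with 4 of 14 below 0, and summed to 2387 and 3073 CPM against 2584 and 2505 CPM. The epithelial median was 0.34 and 0.02 without exposed replicates 1 and 2. LOC101749333, named KRT18 in the RefSeq table, and GRHL2 had log2 fold changes of 1.73 and 0.64, and the basal cell gene TP63 of -0.71. None of the genes in these 4 lists passed edgeR. At an unadjusted p under 0.05, 5 leukocyte, 4 T cell, 6 macrophage and 1 epithelial gene were lower and 3 epithelial genes higher. DESeq2 called CYBB and LOC101749333.

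Each of the 23 cell cycle genes tested was lower without overlap, with a median log2 fold change of -0.98, against 17.2% of all tested genes. They summed to 826 and 705 CPM in the exposed libraries and to 1396 and 1514 CPM in the controls, and DESeq2 called 10 of them and edgeR 0. PLK1, CCNB2 and BUB1, all of mitosis, had log2 fold changes of -1.46, -1.12 and -0.97. The pattern of the 8 genes over the libraries was also compared with that of 11910 other genes with a mean of at least 5 CPM. Since the 8 were chosen with this contrast known, the nearest genes are lower after exposure by construction. The measure was the Euclidean distance between log2 CPM values centred on their mean over the 4 libraries, the 8 genes being averaged. The named genes among the 10 nearest were FAM72A, NCAPH, SLA2, TOP2A, CCNA2 and KIF11, at distances from 0.077 to 0.161, and 4 further ones are known by locus identifiers only. NCAPH, TOP2A, CCNA2 and KIF11 act in chromosome condensation, DNA untangling and mitosis. TOP2A stood at 94.5 and 81.6 CPM in exposed libraries and at 174 and 211 CPM in controls, with control replicate 2 the highest, as for the 8 genes. SLA2, an adaptor that dampens antigen receptor signals in lymphocytes, stood at 3.93 and 3.44 CPM against 7.03 and 9.49 CPM. Over 4 libraries such a likeness is a description only.

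Counting may have touched a pair of the genes. In the RefSeq table BTK overlaps RPL36A, a ribosomal protein gene, and CD79B overlaps LOC107055278, and no source used here says whether the counting used strand. RPL36A stood at 75.7 and 52.7 CPM in exposed libraries against 54.8 and 55.1 CPM in controls, and LOC107055278 at 9.44 and 7.28 CPM against 7.79 and 9.67 CPM, so the groups overlapped for both. The other 6 genes overlap no gene in that table.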

How the data were processed

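RNA sequencing of chicken trachea gave 2 libraries from hydrogen sulfide exposed birds and 2 from control birds. The authors deposited raw read counts, 1 column per library, without normalization, and the submitters' processing notes name HISAT2. The counter, genome build, annotation and strand setting were not given in the sources used here. Library totals ranged from 16899066 to 22706119. Genes were filtered with filterByExpr by group (16545 of 26296 passed), scaled by TMM and tested two-sided in edgeR 4.0.16 (R 4.3.3) by quasi-likelihood, on 2 residual degrees of freedom, and p-values were adjusted over all tested genes after Benjamini and Hochberg. DESeq2 1.42.0 was the second tool. Standard errors are the absolute log2 fold change over the square root of F. The common biological coefficient of variation was 33.1%. No library copied another: pairwise chi-square over degrees of freedom was 64.7 to 112. The fits were also run on simulated counts that gave all genes the same dispersion, unlike real counts. That run checked only the direction and size of fitted log2 fold changes, and no error rate is read from it.

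The members and the 12 gene lists were chosen with earlier results of these data known. Of 238 list entries, 202 were found by symbol or by RefSeq identifier and 196 were tested. Besides the members and their direct partners, the genes named are the 3 non-members of each list with the smallest unadjusted p and a mean of at least 1 CPM. EBF1, BACH2, RAG1, RAG2, DNTT, EPCAM, FOXJ1, MATN1, ACTA1, CD3E, SDC1, IGLL1 and the genes overlapping BTK and CD79B were named after their values were seen. Lists of skeletal muscle and cartilage and of erythrocyte genes are in the closing section. Alternatives were other scaling, no filter, DESeq2, a replicate block and leaving out each library. An item that the rule takes is left out of the text.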

Additional observations from a re-analysis of the deposited data

How the results depend on the processing

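All 8 genes kept a log2 fold change below 0 under each of the 9 alternatives run. These were other size factors, library totals, no filter, DESeq2, the replicate block and leaving out each library. The 8 were chosen with this contrast known, and both exposed libraries lay below both controls for each. Leaving out a library could therefore hardly change a sign, and nothing is read from the kept signs. Leaving out each library gave a median over the 8 genes from -1.17 to -0.82, from -0.67 to -0.31 for antigen receptor signalling, from -0.52 to -0.24 for transcription factors, from -0.28 to -0.11 for the plasma cell list and from -0.11 to 0.36 for the BAFF and APRIL axis. MZB1 stood at -1.29 without control replicate 2 and TNFRSF13B at -2.22 without exposed replicate 1. DESeq2 called 132 genes of the whole table against 0 by edgeR. It called 2 in antigen receptor signalling, 1 among transcription factors, 1 in the germinal centre list and 2 in the plasma cell list. Why the tools differ was not tested. edgeR's smallest adjusted p over its settings was 0.428 or more. With the replicate number as a block, edgeR called 0 genes and the median of the 8 was -0.99. Same-numbered libraries did not deviate together (correlation -0.00197), so the numbers were not taken as pairs. At 46 to 50 reads per library, depth limits TNFRSF13C most.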

Other observations

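Markers of muscle, cartilage and red cells varied between libraries of the same group. All 12 muscle and cartilage genes and all 4 erythrocyte genes had a log2 fold change above 0, with medians of 0.34 and 0.81. Of all tested genes, 48.4% lay below 0. Skeletal muscle and cartilage genes summed to 18830 and 21850 CPM in the exposed libraries and to 9922 and 23500 CPM in control replicates 1 and 2. The muscle genes CKM and TNNT3 stood at 265 and 881 CPM in exposed replicate 1 and at 54.4 and 326 CPM in exposed replicate 2, against 116 and 684 CPM in control replicate 1 and 20.5 and 128 CPM in control replicate 2. The cartilage factor SOX9 stood at 61.6 and 102 CPM in exposed libraries against 26.4 and 95.9 CPM in controls. The haemoglobin genes HBAA and HBAD were highest in exposed replicate 2, at 61.6 and 14.9 CPM, against 26.3 and 6.57 CPM in exposed replicate 1, and the controls had 25.7 and 24.5 CPM of HBAA and 11.6 and 7.19 CPM of HBAD. HBAA was higher in both exposed libraries than in both controls, as were 15.3% of all tested genes. None of these genes passed edgeR. None had an unadjusted p under 0.05, and DESeq2 called 0 of the 12 muscle and cartilage genes and 0 of the 4 erythrocyte genes. The level of all 8 B lineage genes was highest in control replicate 2, the library with the least muscle RNA by these genes. COL2A1, ACAN, MATN1 and MATN3 of cartilage were also highest in control replicate 2, and COMP and SOX9 in exposed replicate 2. Any link of muscle or cartilage content to the levels of the 8 genes was not tested.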
